A study of Homo sapiens with 6 samples.

Results

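A set of 3 rows of an RNA-seq count table was followed, identified by the first transcript ID of each: uc002gka.3, uc003zje.3 and uc001vqi.3. They are 3 of the 20514 rows deposited for A172 cells, an established human glioblastoma line, and all 3 had enough reads to be among the 14711 rows tested. They were chosen on measured values. Each was over 12-fold higher with an siRNA against ADAR1 than with a control siRNA, and more than 3-fold lower again when an siRNA against Staufen1 was added. The rise and the return are therefore given below as descriptions with their errors and without tests. The remaining gap to the control is the sum of the rise and the return, so it is treated in the same way.

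Each group held 2 libraries, replicates a and b. The groups are named by the siRNAs given: siControl, siADAR1, and siADAR1 with siStaufen1, called the combined knockdown here. A single treatment text covers every library. It also names an HA-STAU1 plasmid given on the day after the siRNA, so all 3 groups may share that plasmid, and it is silent on the Staufen1 siRNA. Cells given siStaufen1 without siADAR1 are not among the groups analysed, and its effect is seen only on top of siADAR1. The labels do not say whether replicates were separate cultures, and the spread between them may be technical.

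ADAR1 is an enzyme that converts adenosine to inosine in double-stranded RNA. Staufen1 is a protein that binds double-stranded stretches of mRNA, often in the 3′ untranslated region, and can recruit the helicase UPF1, which leads to decay of the bound mRNA (Staufen-mediated decay). The title of the series links ADAR1 to this decay pathway in stressed cells.

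The table pairs no ID with a gene name, and the annotation at hand held none of these IDs, so no gene symbol, function or sequence is given for the rows. The row uc002gka.3 stands for 4 UCSC hg19 transcripts (uc002gka.3, uc010cnr.3, uc010vuo.2 and uc010vup.2). The row uc003zje.3 also stands for 4 (uc003zje.3, uc003zjf.4, uc010mhn.4 and uc011lmb.2). The row uc001vqi.3 is a single transcript, as are 23.6% of the rows tested. No transcript ID occurred in more than 1 row of the table.

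The reads counted over all rows came to 20291057 to 29508632 per library, which leaves out reads not assigned to a row. CPM is the reads of a row per 1000000 counted reads of its library. Pearson's r of log2 CPM, with the TMM scaling described below and a prior count of 2, was taken across genes, which are not independent replicates. It was 0.988 to 0.994 between replicates and 0.945 to 0.975 between libraries of different groups. Whether the knockdowns lowered ADAR and STAU1 was not analysed here, since their rows could not be named. Levels below are CPM scaled with TMM factors, which correct library totals for differences in composition. The 95% intervals beside them are exact Poisson intervals of the reads and cover counting error only.

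The row uc002gka.3 had 14 and 18 reads in siControl replicates a and b, 645 and 722 reads in siADAR1, and 99 reads in each combined knockdown library. As CPM this was 0.778 (0.425 to 1.30) and 0.807 (0.478 to 1.28) in siControl, 23.2 (21.5 to 25.1) and 22.3 (20.7 to 23.98) in siADAR1, and 3.96 (3.22 to 4.82) and 3.47 (2.82 to 4.23) in the combined knockdown. Both siADAR1 libraries were the highest, both siControl libraries the lowest, and the counting intervals of the 3 groups did not overlap. Its siControl level rests on few reads, and its intervals there were wide for their size.

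The row uc003zje.3 had 59 and 87 reads in siControl, 1238 and 1530 in siADAR1, and 338 and 342 in the combined knockdown. Its CPM was 3.28 (2.49 to 4.23) and 3.90 (3.12 to 4.81) in siControl. It was 44.6 (42.2 to 47.2) and 47.2 (44.9 to 49.7) in siADAR1, and 13.5 (12.1 to 15.03) and 12.003 (10.8 to 13.3) in the combined knockdown. The order of the groups was the same as for uc002gka.3, again without overlap. Replicate b was 1.19 times replicate a in siControl and 0.889 times in the combined knockdown, so the replicates did not deviate in one direction.

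The row uc001vqi.3 had 39 and 40 reads in siControl, 687 and 855 in siADAR1, and 178 and 191 in the combined knockdown. Its CPM was 2.17 (1.54 to 2.96) and 1.79 (1.28 to 2.44) in siControl, 24.8 (22.9 to 26.7) and 26.4 (24.7 to 28.2) in siADAR1, and 7.11 (6.11 to 8.24) and 6.70 (5.79 to 7.72) in the combined knockdown. Here too siADAR1 was highest and siControl lowest in every library. CPM is not divided by transcript length, which is not in the table, so levels are compared between libraries for 1 row and not between rows.

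**Figure D1:**
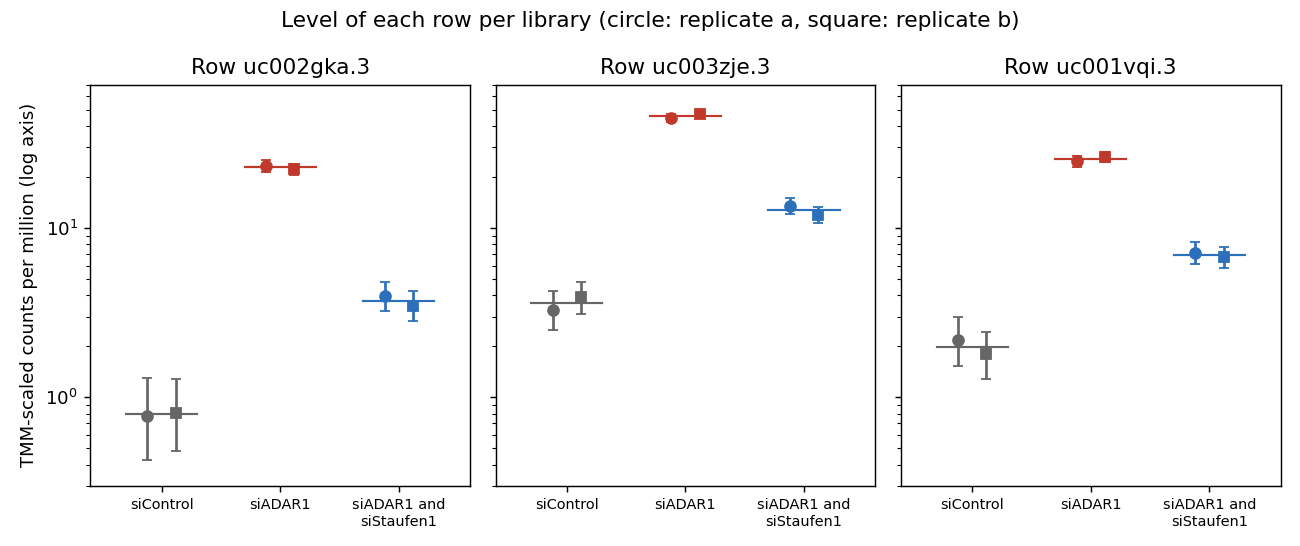
Level of each row in each of the 6 libraries, as TMM-scaled CPM on a log axis, with a panel for each row. Points are libraries (circle for replicate a, square for b), error bars are 95% Poisson intervals of the reads, and horizontal lines are group means. In all 3 panels the combined knockdown libraries lie between siControl and siADAR1, with no overlap between groups.

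The libraries of siADAR1 and siControl did not overlap in any of the 3 rows, where 42.3% of the rows tested were higher in both siADAR1 libraries than in both siControl libraries. Those of the combined knockdown were below siADAR1 in all 3, where 37.4% of rows tested showed that order. Nothing is read from these counts, since the rule fixed both directions. Among all rows tested, 0.326% were over 12-fold higher with siADAR1, 1.42% were over 3-fold lower with the Staufen1 siRNA added, and 0.0952% met both limits.

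With siADAR1, uc002gka.3 was 28.5-fold higher than siControl, a log2 fold change of 4.83 (SE 0.17) in the edgeR model fitted to all rows. The row uc001vqi.3 was 13.0-fold higher, with a log2 fold change of 3.70 (SE 0.14). The row uc003zje.3 was 12.7-fold higher, with 3.67 (SE 0.11). Among the 9007 rows that reached an average log2 CPM of 3, these rises ranked 1, 7 and 10, and among all 14711 rows tested 16, 42 and 46. That average includes the siADAR1 libraries, where the rows were chosen to be high. The median rise over all rows tested was 0.04.

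The rise was also taken for each siADAR1 library from the siControl mean of log2 CPM. It was 29.3-fold in replicate a and 28.1-fold in replicate b for uc002gka.3. It was 12.5-fold and 13.2-fold for uc003zje.3, and 12.6-fold and 13.4-fold for uc001vqi.3. The siADAR1 replicates thus differed little in each row, by at most 0.09 on the log2 scale. Without siControl replicate a, uc003zje.3 was 11.7-fold higher and fell just short of the limit, and without replicate b uc001vqi.3 was 11.7-fold higher. The row uc002gka.3 stood at 27.9-fold without siControl replicate a and at 29.0-fold without replicate b.

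When the Staufen1 siRNA was added, uc002gka.3 was 6.14-fold lower than with siADAR1 alone, a log2 fold change of -2.62 (SE 0.12). The row uc001vqi.3 was 3.71-fold lower (-1.89, SE 0.11), and uc003zje.3 was 3.61-fold lower (-1.85, SE 0.09). The median over all rows tested was 0.00106. Among those 9007 rows, these falls ranked 9, 30 and 34, and among all rows tested 38, 117 and 127. The 8 of the 9007 rows that fell further than uc002gka.3 had all risen less. From the siADAR1 mean, the combined knockdown replicates a and b were 5.75-fold and 6.55-fold lower for uc002gka.3, 3.40-fold and 3.83-fold lower for uc003zje.3, and 3.59-fold and 3.81-fold lower for uc001vqi.3. Replicate b was the lower library in all 3 rows.

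The rise and the return both use the siADAR1 libraries, so a chance high value there would enlarge both. With the rise taken from one siADAR1 library and the return from the other, uc002gka.3 rose 29.3-fold or 28.1-fold and returned 6.01-fold or 6.27-fold. For uc003zje.3 the values were 12.5-fold with 3.71-fold, and 13.2-fold with 3.50-fold. For uc001vqi.3 they were 12.6-fold with 3.82-fold, and 13.4-fold with 3.59-fold. All 3 rows stayed past both limits in either assignment, which was chosen after seeing the data. The rows themselves were picked on all of these libraries, so neither assignment is an independent repeat.

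None of the 3 rows came back to the siControl level. In the combined knockdown, uc002gka.3 remained 4.65-fold above siControl, a log2 fold change of 2.22 (SE 0.21). The rows uc003zje.3 and uc001vqi.3 remained 3.52-fold and 3.51-fold above it, with 1.82 (SE 0.13) and 1.81 (SE 0.16). Per combined knockdown library, replicates a and b stood at 4.99-fold and 4.39-fold for uc002gka.3. They stood at 3.78-fold and 3.36-fold for uc003zje.3, and at 3.61-fold and 3.40-fold for uc001vqi.3. Both combined knockdown libraries lay above both siControl libraries in 3 of 3 rows, where 39.8% of all rows tested did so. The rule placed no limit on this gap, but the gap is the sum of the steps it used, and the median gap over all rows tested was 0.02.

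**Figure D2:**
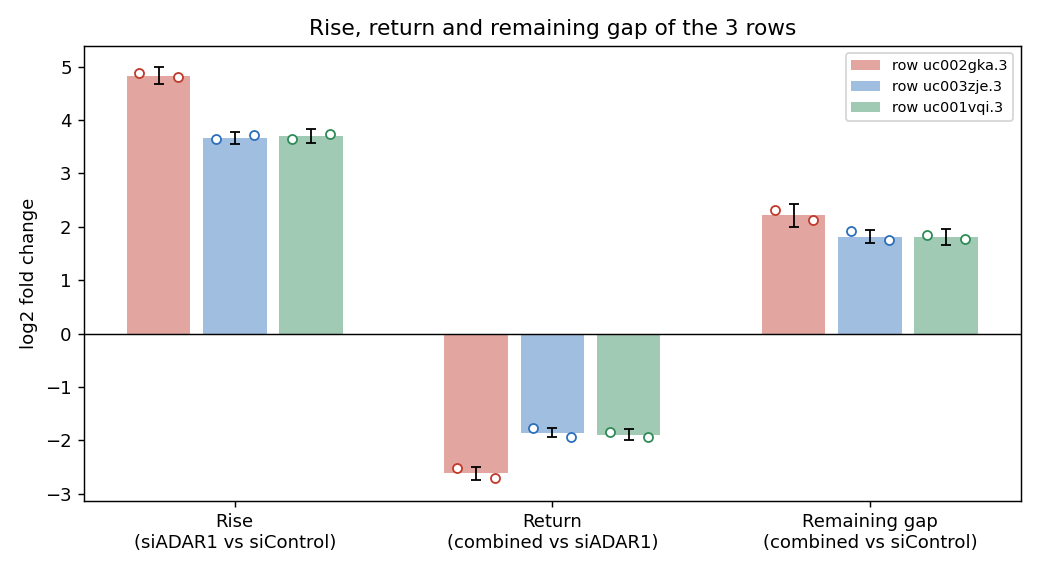
Log2 fold changes of the 3 rows for the rise, the return and the remaining gap. Bars are edgeR estimates with their standard errors, and open circles are the values of the single libraries, replicate a on the left. The return bars are shorter than the rise bars in every row, which leaves gaps of 2.22, 1.82 and 1.81.

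How complete the return was depended on the scale. On the log2 scale, where recovery is the size of the return divided by the rise, in percent, it was 54.2% for uc002gka.3, 50.5% for uc003zje.3 and 51.1% for uc001vqi.3. The combined knockdown replicates gave 52.1% and 56.0% for uc002gka.3, 47.9% and 52.6% for uc003zje.3, and 49.9% and 52.2% for uc001vqi.3. Counted as the share of the added CPM that was lost again, recovery was 86.7% ± 1.6 (SD, n = 2) for uc002gka.3, 78.4% ± 2.5 (SD, n = 2) for uc003zje.3 and 79.1% ± 1.2 (SD, n = 2) for uc001vqi.3. These SDs hold only the spread of the 2 combined knockdown libraries, with the siADAR1 and siControl means held fixed. Most of the added CPM was thus lost again, while the fold over siControl stayed several times above 1. To call the rises largely reversed fits the count of reads and not the log2 scale.

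The 3 rows were next compared with each other inside each library, where the scaling between libraries drops out. The ratio of uc001vqi.3 to uc003zje.3 reads was 0.661 and 0.460 in siControl, 0.555 and 0.559 in siADAR1, and 0.527 and 0.558 in the combined knockdown. The lowest and highest of these were the siControl libraries, where the exact binomial 95% intervals were widest (0.429 to 1.01 in replicate a and 0.308 to 0.676 in replicate b). The siADAR1 and combined knockdown ratios lay inside both siControl intervals. Between these rows, the log2 rises differed by 0.04 (SE 0.18) and the returns by -0.04 (SE 0.14), with SEs that take the rows as independent. A difference between these rows was therefore not detectable at this depth, which does not show that they moved alike.

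The ratio of uc002gka.3 to uc003zje.3 was 0.237 and 0.207 in siControl, 0.521 and 0.472 in siADAR1, and 0.293 and 0.289 in the combined knockdown. Both siADAR1 libraries were above the other 4, and their exact binomial intervals (0.473 to 0.573 and 0.431 to 0.516) did not overlap those of the combined knockdown (0.232 to 0.367 and 0.229 to 0.363) or of siControl (0.122 to 0.430 and 0.117 to 0.346). The combined knockdown intervals overlapped those of siControl. The separation from siControl was narrow, at 0.430 against 0.431. These intervals cover counting error only and not the spread between replicates. On the log2 scale, the change of this ratio between groups is the difference between the rises or the returns of these rows. The rule used those values, so the lack of overlap is a description and not a test.

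Against uc001vqi.3 the ratio of uc002gka.3 went the same way, from 0.359 and 0.450 in siControl to 0.939 and 0.844 in siADAR1 and 0.556 and 0.518 in the combined knockdown. The log2 rise of uc002gka.3 was larger than that of uc003zje.3 by 1.17 (SE 0.20) and than that of uc001vqi.3 by 1.13 (SE 0.22). Its return differed from theirs by -0.77 (SE 0.15) and -0.73 (SE 0.16). Its remaining gap exceeded theirs by 0.40 (SE 0.25) and 0.40 (SE 0.26). All these SEs take the rows as independent. The rise and the return share the siADAR1 libraries that the rule used, and the gap is their sum. The differences in the 3 steps are therefore not separate results, and their SEs are not used as tests. With 2 libraries a group, the smallest p of an exact two-sided permutation test is 0.333, so none is given for these ratios.

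**Figure D3:**
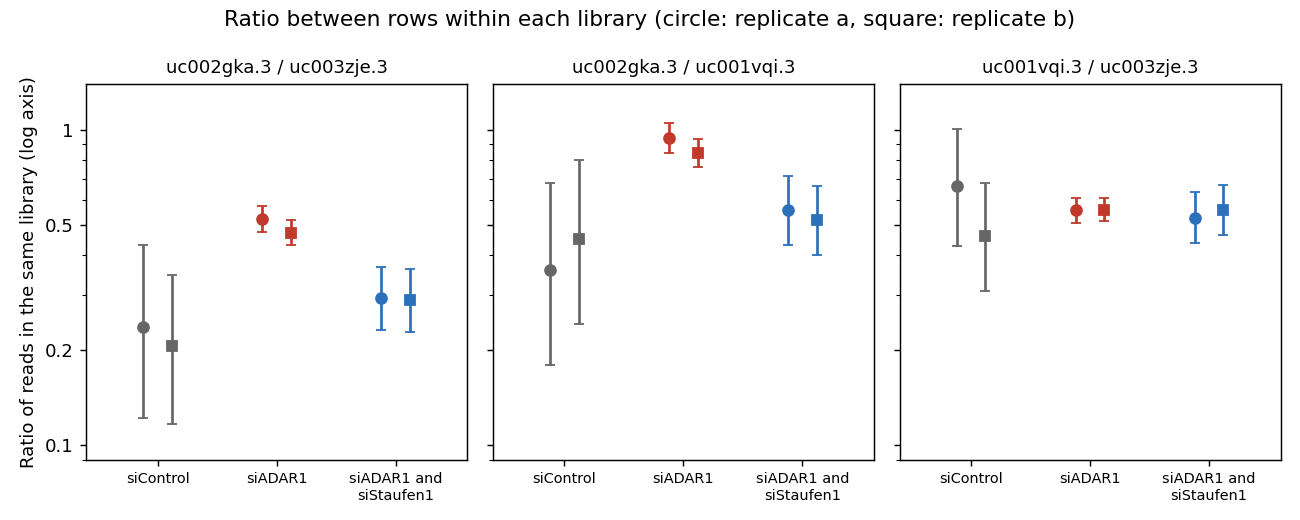
Ratio of the reads of one row to those of another within the same library, on a log axis, with a panel for each pair. Points are libraries (circle for replicate a, square for b) and error bars are exact binomial 95% intervals. The ratio of uc001vqi.3 to uc003zje.3 lies between 0.460 and 0.661 in all 6 libraries, and both ratios of uc002gka.3 are highest in the siADAR1 libraries.

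The fold limits alone do not single out these rows, and the rule states no limit on abundance. Of the 14711 rows tested, 14 met both fold limits, and the 3 rows were the ones among them that reached an average log2 CPM of 3. That average runs over all 6 libraries, so the siADAR1 libraries, where the rows were chosen to be high, help them to reach it. In siControl their highest log2 CPM was 1.96, in uc003zje.3. In the combined knockdown, replicates a and b of uc002gka.3 had 1.98 and 1.80, and those of uc001vqi.3 had 2.83 and 2.74. The other 11 of the 14 had 0 to 17 reads in a siControl library, so their folds rest on few reads and depend on the prior count used in the fit. The row uc002gka.3 is not free of this limit. It had 14 and 18 reads in siControl, and its log2 rise of 4.83 became 4.71 with a prior count of 2. Just outside the 12-fold limit, at or above that abundance and with a return over 3-fold, the nearest 4 rows had rises of 10.8-fold, 9.87-fold, 7.33-fold and 6.37-fold. Just inside it stood uc003zje.3 at 12.7-fold. The first of these 4 returned 6.07-fold. In the same order, the 4 remained 1.79-fold, 3.10-fold, 1.76-fold and 2.05-fold above siControl. The size of their return as a percentage of the log2 rise was 75.7%, 50.6%, 71.6% and 61.2%, against 50.5% to 54.2% in the 3 rows. A return over 3-fold is a larger share of a smaller rise.

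Just outside the return limit, among rows over 12-fold higher, stood uc002mxh.1. It had 91 and 138 reads in siControl, 2519 and 2896 in siADAR1, and 1008 and 1117 in the combined knockdown, a rise of 15.9-fold and a return of 2.27-fold. Just inside that limit stood uc003zje.3, with its return of 3.61-fold. At or above an average log2 CPM of 3, called the abundance limit here, 10 rows were over 12-fold higher with siADAR1. In the 7 that are not described here in full, log2 recovery ran from -10.4% to 29.6% with a median of 18.1%, and the remaining gap from 7.01-fold to 31.0-fold. By edgeR's quasi-likelihood test, 4 of these 7 fell when the Staufen1 siRNA was added, 1 rose and 2 did not pass the test. Of all rows tested, 21.5% fell and 21.7% rose, or 3170 and 3196 rows, a balance that turned to 4411 falls and 2201 rises when libraries were scaled to their totals. A fit kept to rows at or above the abundance limit called 2521 falls and 2503 rises. At or above that limit, 502 of the 857 rows that were 2-fold to 4-fold higher with siADAR1 fell and 59 rose. Of the 136 rows at 4-fold to 8-fold, 90 fell and 12 rose. Of the 16 rows at 8-fold to 12-fold, 12 fell and 3 rose. Both comparisons share the siADAR1 libraries. Leaving out the 3 rows, which all fell over 3-fold, also lowers the count among the 7. The gap between these 7 rows and the 3 in recovery is what the limit on the return selects.

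Recovery on the log2 scale was also taken in rows with smaller rises, from the same comparisons. At or above the abundance limit, the 857 rows 2-fold to 4-fold higher with siADAR1 had a median recovery of 25.1%. The 136 rows 4-fold to 8-fold higher had 24.1%, and the 16 rows 8-fold to 12-fold higher had 27.6% (quartiles 10.5% and 42.1%). A return over 3-fold was seen in 8, 10 and 2 of these rows in the same order. A row that rose only 2-fold has to pass below its siControl level to return 3-fold, so these counts and the 3 of 10 above are not on equal terms.

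**Figure D4:**
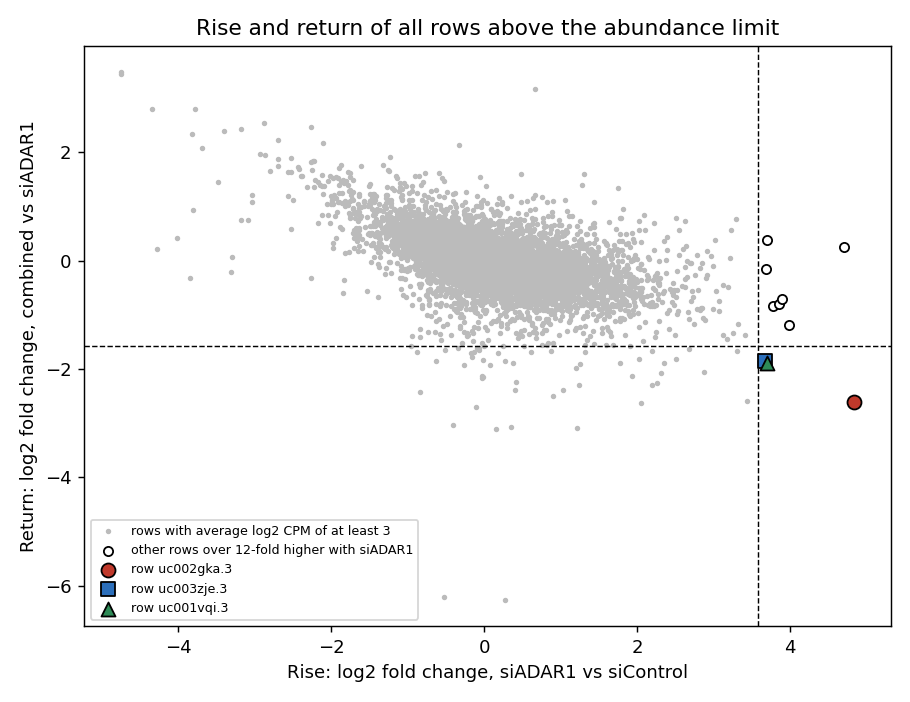
Rise (log2 fold change of siADAR1 against siControl) and return (log2 fold change of the combined knockdown against siADAR1) of the 9007 rows at or above the abundance limit (average log2 CPM of 3). Dashed lines mark 12-fold and 3-fold, grey points are rows, and open circles are the 7 other rows over 12-fold higher. Only the 3 coloured rows lie right of and below the lines, with uc003zje.3 and uc001vqi.3 next to each other near the corner and uc002gka.3 well inside it.

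The rows most like each of these were sought over the 6 libraries by the Euclidean distance between log2 CPM values, each row centred on its own mean, among the 9007 rows. The nearest row to uc003zje.3 was uc001vqi.3 and the reverse, at a distance of 0.37. The nearest row to uc002gka.3 was uc003zje.3, at 1.10. The nearest row outside the 3 was uc001dte.4, at 0.45 from uc001vqi.3, named here after its values were seen. It is a row of 8 transcripts that had 43 and 40 reads in siControl, 506 and 730 in siADAR1, and 158 and 185 in the combined knockdown. Its rise was 9.87-fold, its return 3.19-fold and its log2 recovery 50.6%. That distance is close to the one between uc003zje.3 and uc001vqi.3, so the 12-fold limit separates uc001vqi.3 from a row with much the same profile. Outside the 3, the row nearest to uc003zje.3 was uc001hce.3, at 0.53, with a rise of 10.7-fold and a return of 2.59-fold. For uc002gka.3 it was uc002mxh.1, at 1.43, with a return of 2.27-fold. These were also named after their values were seen.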

How the data were processed

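The authors deposited expected counts of reads per row, made with RSEM as the table's title names it, and all are whole numbers, so rounding changed none. Rows are groups of UCSC hg19 transcripts per the file headers. RSEM 1.2.3, edgeR and build hg19 are named in the submitters' processing notes without a role. No source used here states the aligner, the strand setting or the rounding, so antisense partners and near-identical genes may share reads. Per the labels' protocols, libraries were made from total RNA with the SENSE mRNA kit V2 of Lexogen.

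Rows were kept with edgeR's filterByExpr (10 reads, total 15). All 6 libraries entered 1 fit with TMM factors and group means, and contrasts were tested by edgeR's quasi-likelihood F test, two-sided (Benjamini-Hochberg over 14711 rows, threshold 0.05, 3 residual degrees of freedom). Standard errors came from F statistics. Average log2 CPM used a prior count of 2. The fit was tested on simulated data. Versions were edgeR 4.0.16, DESeq2 1.42.0 and limma 3.58.1 in R 4.3.3, and matplotlib 3.10.9 in Python 3.11.15.

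The 3 rows, the rules and the lists were chosen with earlier results of these data known. The rule for naming took the 3 rows and, for each, the row nearest in pattern; gene lists and cell type markers were to be used only with an annotation of UCSC IDs, and were not used here. Alternatives were DESeq2 size factors or library totals, no filter or a stricter one, DESeq2, limma-voom, a block for the letters a and b, leaving out single libraries, only the libraries compared, and another prior count; taking the rise and the return from different siADAR1 libraries was added after seeing the data.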

Additional observations from a re-analysis of the deposited data

How the results depend on the processing

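No log2 change of the 3 rows turned its direction under any of the 147 alternative values, all drawn from the same 6 libraries. Nothing is read from this, since the rows were chosen for large changes in these libraries. Of the 147 values, 130 moved by less than 1 SD. For the rise, that SD is the spread of the 2 siADAR1 libraries against the siControl mean. For the return and the gap, it is the spread of the 2 combined knockdown libraries against group means. The spread between siControl libraries is left out. Scaling to library totals shifted the median of all rows by 0.30 for the rise, -0.11 for the return and 0.18 for the gap. With it the rises became 5.13 (uc002gka.3), 3.96 (uc003zje.3) and 3.999 (uc001vqi.3), the returns -2.73, -1.97 and -2.01, and the gaps 2.40, 1.998 and 1.99. Against siControl, siADAR1 then gave 7094 rows called higher and 2407 lower, in place of 4847 and 4365, and the combined knockdown 5737 and 2349, in place of 4224 and 3798. Then 5 rows met both fold limits at an average log2 CPM of at least 3.

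Of all rows tested, 156 met both limits with no filter on low counts, 3 with a filter on average log2 CPM of at least 3, and 7 with a prior count of 2. With each library left out in turn, 21 to 36 did, with 15051 to 15164 rows tested instead of 14711. The same settings left 2 or 3 of the 3 rows past both limits, with 2 when either siControl library was left out. Log2 recovery ranged from 52.4% to 56.1% for uc002gka.3, from 48.5% to 52.8% for uc003zje.3 and from 49.7% to 53.4% for uc001vqi.3. Leaving out a library assumes that the lone sample of a group varies like the other groups.

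The letters a and b were not treated as pairs: across genes, same-letter libraries deviated from their group means with correlations of 0.051, 0.021 and 0.0060. With the replicate block, recovery was 54.2%, 50.5% and 51.1% in the order above, and 3 of 3 rows stayed past both limits. Rows called higher with siADAR1 went from 4847 to 4858. The fit with only the 4 libraries compared gives no recovery, which needs 3 groups.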
